A study of Mus musculus with 16 samples.

Results

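The comparison was between the pituitaries of *Esr1*Nkx2-1Cre mutant and control female mice fed a high-fat diet (HFD), with 4 mice in each group. These were 8 of the 16 libraries in the series, chosen by their genotype and diet labels alone, and the other 8 libraries came from both genotypes on a standard diet (SD), labelled chow. All mice were 27 weeks old, and the HFD mice had received the diet, with most of its energy from fat, for the last 17 weeks. Both genotypes carried the floxed *Esr1* allele (*Esr1* fl/fl) on a mixed CD-1;129P2 background, and only the mutants also carried the Nkx2.1-cre transgene. The question was what the loss of oestrogen receptor alpha from cells with a history of *Nkx2-1* expression does to pituitary transcripts when the females are on HFD.

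*Esr1* encodes oestrogen receptor alpha, a nuclear receptor that binds oestradiol and regulates transcription from oestrogen response elements. *Nkx2-1* encodes a homeodomain factor of the ventral hypothalamus and of the neural lobe of the pituitary, and is not a factor of the anterior lobe hormone cells. The mutants are a model of deletion in the *Nkx2-1* lineage, and in which pituitary cells the Cre acted cannot be told from whole-tissue values. Oestradiol acts on the pituitary itself, where it is known for raising prolactin and galanin in lactotrophs, for growth of the lactotroph population with its vessels, and for negative feedback on gonadotrophs.

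Expression was given as 1 normalised value per gene and mouse, which is not a read count, and 1 read is worth less in a longer transcript. The 8 columns summed to between 908897 and 1080960. What a read is worth was estimated from the steps of the low values in 1457 genes with 1 annotated transcript. In the 8 HFD libraries, 3 reads corresponded to 0.132 to 0.209 units in a transcript of 1 kilobase, and to less in a longer one. Differences below are on the log2(value + 0.5) scale, mutant minus control, a scale that shrinks the differences of weakly expressed genes. Each gene is a tissue-level measure, in which fewer cells of a type and less RNA per cell cannot be told apart. Of 17362 genes listed, 14345 averaged 1 or more across all 16 libraries and entered the limma fit, and a gene is called at an adjusted p (Benjamini-Hochberg) under 0.05. Values are printed in a fixed order, P339, P341, P387 and P388 for the mutants and P385, P390 and P391 for the controls, with the control P392 named apart. In what follows, rose and fell mean called without P392. None of those genes was called with all 4 controls, and the all-control estimate is given as the value with it. Each library came from 1 mouse. An exact permutation test of 4 mutants against 3 controls cannot go below p = 0.0571 (two-sided), so it cannot pass for that contrast.

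The control P392 stood apart from the others, and the main estimates are given with and without it. The pituitary hormone genes identified the tissue in all 8 libraries, with *Prl* (prolactin) taking 28.8% to 40.6% of each column's sum. In P392, however, *Pomc*, the hormone precursor of corticotrophs and melanotrophs, was 3443 against 15453, 11234 and 42042 in the other controls and 21999, 21792, 14118 and 19696 in the mutants. Summed melanotroph markers (*Pax7*, *Pcsk2* and *Oacyl*) were 40.6 in P392 against 145, 135 and 255 in the other controls, and *Nkx2-1* was listed at 0 in P392 alone. *Oxt* and *Avp*, the posterior pituitary hormone genes whose transcripts sit in nerve terminals, were 2.10 and 0 in P392 against 15.7 to 25.7 and 6.99 to 10.2 over the other controls. P392 thus carried little signal of the intermediate and posterior lobes. The 6 posterior lobe markers had a mean on the log2 scale of 0.44 in P392, against 1.60, 1.39 and 1.55 in P385, P390 and P391. Of these 6, 2 were listed at 0 in P392, while *Vcan* (1.71 against 1.42 to 2.13) and *Col25a1* were not low. Across the tested genes, the mean Pearson correlation of P392 was 0.965 with the 4 mutants and 0.935 with the other 3 controls, whereas P385, P390 and P391 correlated better with each other (0.965, 0.970 and 0.968) than with the mutants (0.958, 0.942 and 0.938), and P385 was the nearest of them to the mutants. Leaving out P392 was decided with values in view, and because P392 resembles mutants, leaving it out favours a difference. Its *Esr1* value of 39.6 and its values of *Chodl* (0.270) and *Crisp1* (0.708), in contrast, lay with or below the controls. Whether P392 was labelled or dissected differently from the other mice was not tested and cannot be told from the labels, and every estimate below, with or without it, carries that limit.

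**Figure D1:**
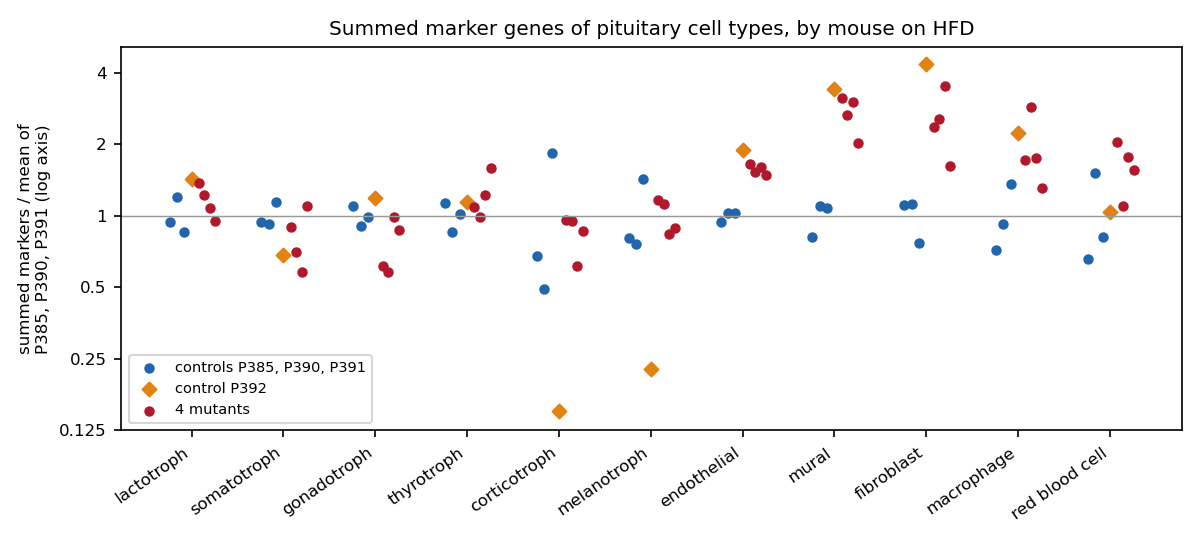
Summed values of the marker genes of 11 cell types (x axis) in each mouse on HFD, divided by the mean of the controls P385, P390 and P391 (y axis, log scale). Blue points are those 3 controls, red points the 4 mutants and orange diamonds the control P392. Endothelial, mural and fibroblast sums of P392 lie above all 4 mutants, and its corticotroph and melanotroph sums lie below every other mouse.

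The deleted gene was measured first. *Esr1* (ENSMUSG00000019768, chromosome 10, 4611593 to 5005614 of GRCm38) was 33.4, 27.9, 33.0 and 21.5 in the mutants, 23.6, 43.4 and 42.7 in the controls and 39.6 in P392. The lowest control, P385, lay among the mutants, so the groups overlapped. The log2 difference was -0.34 (standard error 0.25, adjusted p = 0.696) with all 4 controls and -0.30 (standard error 0.28, adjusted p = 0.663) without P392, and neither is larger than the spread between mice. On SD, *Esr1* was lower in the mutants, at a mean of 18.6 ± 5.77 (SD, n = 4) against 38.9 ± 7.32 (SD, n = 4), with no overlap and a log2 difference of -1.09 (adjusted p = 0.0409). The difference between the diets in this *Esr1* contrast was 0.75 (adjusted p = 0.924) with all 16 mice and was not past the threshold. Coordinates throughout are of GRCm38. *Nkx2-1* was low throughout, at 1.39, 1.46, 1.19 and 1.10 in the mutants and 1.70, 1.303 and 0.997 in the 3 other controls.

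With all 8 mice, no single gene was separable from the spread between mice after adjustment, although several genes had groups that did not overlap at all. The clearest was *Chodl*, which encodes the membrane protein chondrolectin. It was 1.78, 2.74, 1.21 and 2.43 in the mutants, 0.345, 0.467 and 0.126 in the controls and 0.270 in P392. Every mutant lay above every control, and only the controls were at a level of few reads per kilobase of transcript. The log2 difference of *Chodl* was 1.64 (standard error 0.25, adjusted p = 0.105). *Crisp1*, of the cysteine-rich secretory protein family, was 40.3, 47.0, 8.99 and 33.4 in the mutants, 1.301, 1.59 and 3.99 in the controls and 0.708 in P392. It differed by 3.72 (standard error 0.66, adjusted p = 0.166), and P392 was the lowest of all 8 mice. *Spon1*, encoding the matrix protein F-spondin, was 25.4, 21.7, 20.3 and 23.1 in the mutants and 3.59, 4.12 and 3.25 in the controls, with P392 at 16.2, nearer the mutants but outside their range (log2 difference 1.98, adjusted p = 0.166). *Adamts19*, of the secreted ADAMTS metalloproteases, had the same order, with 5.29, 7.95, 6.52 and 3.72 in the mutants, 0.939, 0.197 and 0.130 in the controls and 2.85 in P392.

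The other genes with the smallest unadjusted p and no overlap were *Rhobtb1*, *Gpx8* (a peroxidase of the endoplasmic reticulum), *Cryab* (a small heat shock protein) and *Unc45b* (a myosin chaperone), higher in mutants by 1.57, 1.03, 0.58 and 1.74 on the log2 scale. Lower in mutants were *Slc25a13* (a mitochondrial aspartate-glutamate carrier), *Pigyl*, *Thap3*, *Uaca*, *Parp16*, *BC051142*, *Hapln1* (a link protein of the hyaluronan matrix) and *Gemin8* (of the SMN complex), with log2 differences of -1.14, -0.67, -0.50, -0.78, -0.71, -0.92, -1.68 and -0.44. Adjusted p in these 16 genes ran from 0.105 to 0.211. Without P392 their differences ran from -1.94 in *Hapln1* to 3.45 in *Crisp1*. In all, 0 of 14345 genes (0%) were called with all 8 mice, 1461 (10.2%) had an unadjusted p under 0.05, and in 761 (5.3%) the 4 mutants and 4 controls did not overlap. The count was 653 without P392. It was 1068 when the fit gave each of the 16 mice a weight, which was 0.378 for P392 and lowest, at 0.152, for P357, a mutant on SD, and the part of each mouse in that count was not tested.

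Without P392, the mutants differed from the 3 remaining controls in a broad set of genes, most of them higher. A total of 653 genes (4.55% of those tested) passed, 519 higher (3.62%) and 134 lower (0.934%) in mutants, and 2404 (16.8%) had an unadjusted p under 0.05. Of the 653, 365 differed by at least 1 and 86 by at least 2 on the log2 scale, and the median difference over all tested genes was 0.02. The 4 mutants did not overlap with the 3 controls in 646 of the 653, and in 2823 (19.7%) of all tested genes, so lack of overlap alone was common. With quantile normalisation 454 were higher and 225 lower, a lower share of increases. Single mice moved the count, which was 297 without P390, between 343 and 402 without P391, P341, P339 or P387 alone and 1064 without P357, which enters through the shared variance, and 246 of the 653 genes passed without each of the 7 other HFD mice.

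The largest increases were in 2 neighbouring serine protease genes and a peptide precursor. *Prss29* (ENSMUSG00000034039, chromosome 17, 25318654 to 25322684) encodes a trypsin-like serine protease and was 340.7, 285, 205 and 138 in the mutants, 0.731, 0.140 and 0.378 in the controls and 370.0 in P392. The controls were near 0, every mutant was far above them, and P392 was above all of them. The log2 difference was 8.02 without P392 (standard error 0.52, adjusted p = 6.93e-07) and 5.84 with it (adjusted p = 0.211). Its neighbour *Prss28* (chromosome 17, 25308646 to 25311876), a serine protease of the same family, was 37.3, 46.8, 63.3 and 21.8 in the mutants, 0, 0 and 0.0621 in the controls and 59.1 in P392, and differed by 6.26 without P392 (standard error 0.26, adjusted p = 4.86e-09) and by 4.55 with it. Reads that fit both of these related genes could be divided between them. Since the pair moved together, a stretch of each RefSeq promoter (GRCm38.p6) is given 5′ to 3′ on the gene's strand, with capitals for GGTCA, a single arm of the palindromic oestrogen response element, or its reverse complement TGACC.
Prss29, chr17:25318584-25318613, plus strand: agggtttgagctTGACCtgGGTCActttgt
Prss28, chr17:25308581-25308610, plus strand: caggtagctgtgGGTCAcctttgtctaggt
The *Prss29* stretch holds 2 arms in opposite orientation and the *Prss28* stretch 1, and a match is only letters in a window. In *Prss29* TGACC comes before GGTCA, the reverse of their order in the palindromic element, so the stretch does not hold that element. Among the genes of the 15 largest increases and 15 largest decreases, 18 had a promoter in the RefSeq set and 9 held an arm. Of all 13843 promoters of tested genes, 38.1% held an arm, a share counted by promoter and not by gene, and the 2 were not compared by a test.

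A peptide gene stood beside them in size. *Prlh* (ENSMUSG00000090550, chromosome 1, 90953108 to 90954027), which encodes prolactin releasing hormone, was 317, 379.9, 363 and 180.1 in the mutants and 556 in P392. Among the other controls it was 7.71, 0 and 0, listed at 0 in P390 and P391. It differed by 7.88 without P392 (standard error 1.12, adjusted p = 0.000859) and by 5.68 with it (adjusted p = 0.256), and with controls listed at 0 the fitted sizes depend on the 0.5 added.

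Further large increases were in *Emilin2* (an elastin-associated matrix protein), *Ak5* (an adenylate kinase), *Hist1h2af* (a histone of a multicopy family, whose counting is uncertain), *Crisp1*, *Spink4* (a Kazal-type protease inhibitor), *Hmcn2* (a hemicentin), *Slc5a5* (the sodium iodide symporter), *Asic2* (an acid-sensing sodium channel), *Abcc3* (an organic anion exporter), *Vgf* (a neuroendocrine granule peptide precursor), *Ly6a* (a GPI-anchored surface protein) and *Clec2l*. Their log2 differences without P392 ran from 2.96 in *Clec2l* to 4.05 in *Emilin2*, and with it from 2.04 in *Ly6a* to 3.72 in *Crisp1*. *Vgf* was 101, 99.8, 149.5 and 60.7 in the mutants, 10.5, 13.7 and 9.48 in the controls and 165 in P392 (log2 difference 3.09, standard error 0.25, adjusted p = 9.26e-06, and 2.13 with it). *Slc5a5* was 9.86, 10.5, 17.0 and 7.41 in the mutants, 0.974, 0.491 and 0.473 in the controls and 19.0 in P392. In both genes the P392 value exceeded every mutant. *Crisp1* was the only one of these 15 genes in which P392 lay with the controls.

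The largest decreases were in *Cilp* and a pair of nicotinic receptor genes. *Cilp*, encoding the cartilage intermediate layer protein, was 0.173, 0.292, 0.410 and 0.629 in the mutants, 5.15, 6.83 and 23.0 in the controls and 0.490 in P392 (log2 difference -3.53, standard error 0.52, adjusted p = 0.00121, and -2.69 with it). *Chrna6* and *Chrnb3* (chromosome 8, 27403212 to 27413944 and chromosome 8, 27368711 to 27399730) encode nicotinic acetylcholine receptor subunits and lie side by side. *Chrna6* was 0.925, 0.881, 1.89 and 1.57 in the mutants, 6.48, 49.8 and 17.1 in the controls and 1.29 in P392, a difference of -3.38 (standard error 0.75, adjusted p = 0.0179) without P392 and -2.54 with it. *Chrnb3* was 0.818, 0.907, 1.79 and 1.40 in the mutants, 5.51, 32.1 and 20.2 in the controls and 1.55 in P392, a difference of -3.24 (standard error 0.61, adjusted p = 0.00601) without P392 and -2.50 with it. The controls differed severalfold among themselves in both genes, with P385 lowest. The other decreases of this size were in *Sez6*, *Klhl1*, *Asic4*, *Caps2*, *A2m* (a protease inhibitor), *Hapln1*, *Myh7* (a slow myosin heavy chain), *Pcdh10* (a protocadherin), *Nmu* (neuromedin U), *Fam92b*, *Slc6a11* (a GABA transporter) and *Ccdc148*, from -2.42 to -1.53 without P392 and from -1.79 (*Klhl1*) to -1.10 (*Ccdc148*) with it. Of the 15 largest increases and 15 largest decreases, 20 passed without each of the 7 other HFD mice, and those that did not were *Chrna6*, *Sez6*, *Klhl1*, *Pcdh10*, *Slc6a11*, *Fam92b*, *Nmu*, *Hapln1*, *Asic2* and *Crisp1*.

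**Figure D2:**
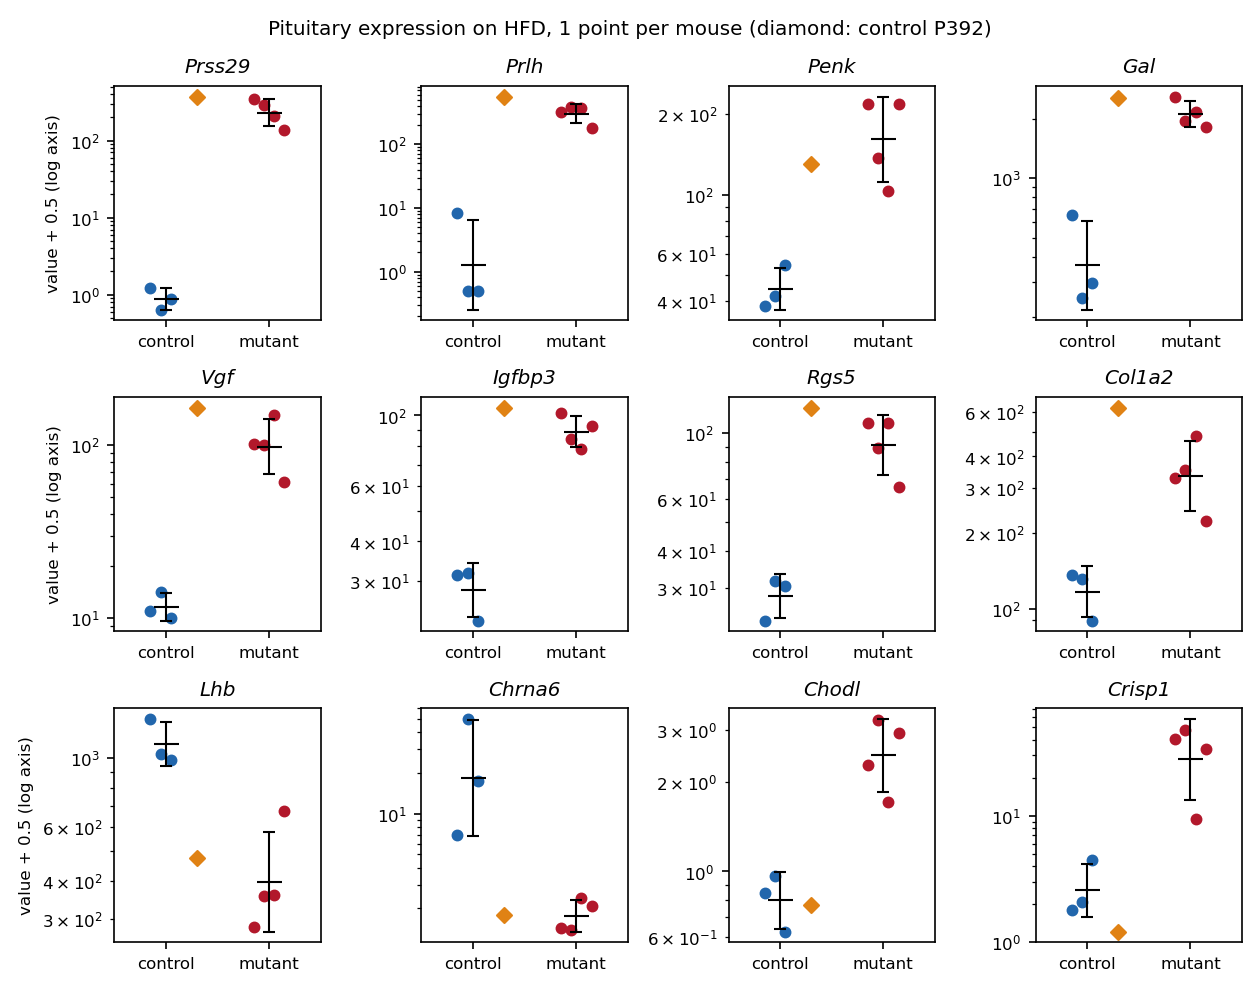
Value + 0.5 (y axis, log scale) of 12 genes in each mouse on HFD, with the controls P385, P390 and P391 in blue, P392 as an orange diamond and the 4 mutants in red. Bars give the mean ± 1 SD of the log2 values of the 3 controls and the 4 mutants. P392 lies at or beyond the mutants in *Prss29*, *Prlh*, *Vgf* and *Col1a2*, and with the controls in *Chodl* and *Crisp1*.

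Where P392 lay in the 653 genes is a description, since it was left out for its likeness to the mutants. On a scale with the mean log2 value of the 3 other controls at 0 and that of the 4 mutants at 1, P392 had a median position of 1.10 in the 519 increased genes and 1.02 in the 134 decreased genes. It was nearer the mutants in 500 (96.3%) of the increased and 117 (87.3%) of the decreased genes, against 64.6% of all tested genes. In 319 of the 653 it fell within the range of the mutants, in 232 beyond them, in 85 between the groups, in 15 within the range of the 3 controls and in 2 beyond the controls. Over all 14345 tested genes, whose mutant and control ranges mostly overlap, it was within the mutants' range in 7812 and beyond them in 3111, so a place inside the mutants' range was not particular to the 653. The 2 genes beyond the controls were *Crisp1* and *Tnfaip8* (an apoptosis regulator of the TNF-induced family), and *Tnfaip8* was 3.31, 3.56, 6.19 and 1.94 in the mutants, 0.839, 0.634 and 1.84 in the controls and 0.529 in P392. Increased genes in which P392 lay within the controls' range were *Chodl*, *Odc1* (the first enzyme of polyamine synthesis), *Cngb1*, *Marcksl1* and *Cntnap5b*, named after their values were seen. *Marcksl1* was 28.1, 31.8, 30.5 and 36.7 in the mutants, 19.8, 18.2 and 22.7 in the controls and 22.5 in P392. Its log2 difference was 0.64 without P392 and 0.60 with it (adjusted p = 0.166), a small shift. The part of the low intermediate lobe markers of P392 in its position was not tested.

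**Figure D3:**
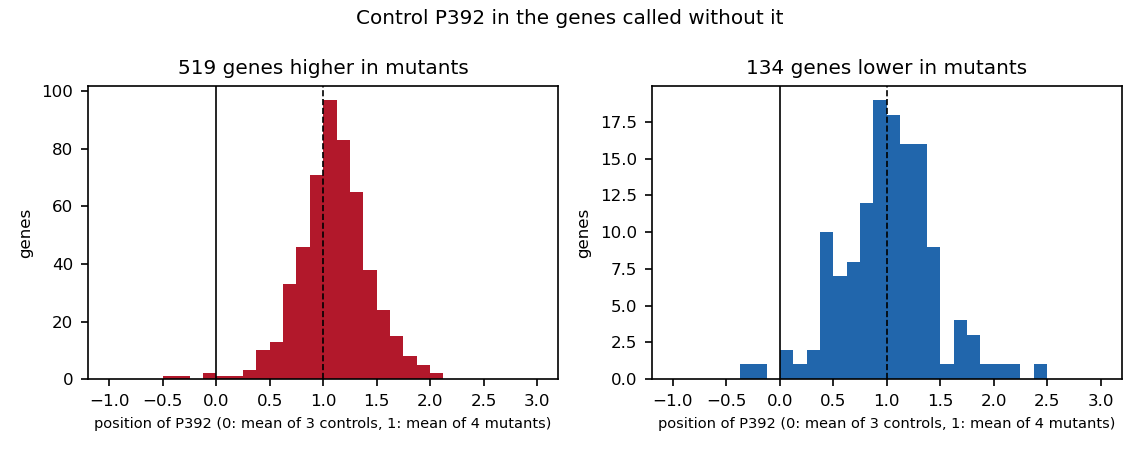
Number of genes (y axis) by the position of P392 (x axis) on a scale where 0 is the mean log2 value of the controls P385, P390 and P391 and 1 that of the 4 mutants, for the 519 genes called higher (left) and the 134 called lower (right) without P392. Both distributions centre near 1, the mean of the mutants.

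Of the 7 hormone genes, *Lhb* was the only one called without P392. *Lhb*, encoding the beta subunit of luteinising hormone, was 283, 357.96, 360.2 and 675 in the mutants, 1343, 1035 and 986 in the controls and 473 in P392. The 3 controls lay above every mutant, P392 lay among the mutants, and the difference was -1.49 (standard error 0.27, adjusted p = 0.00499) without P392 and -1.18 (adjusted p = 0.211) with it. *Lhb* overlaps *Ruvbl2* on the opposite strand, and whether reads were counted by strand is not given in the sources used here. The same limit holds for 16 of the 135 named genes, which overlap another listed gene. Besides *Lhb* and *Chrd*, the called ones are *Rhobtb1*, *Cryab*, *Ak5*, *Klhl1*, *Col25a1*, *Egfl7*, *Tgfb3*, *Col4a2*, *Fdft1* and *Rab3a*. In *Col25a1* the overlapping gene is on the same strand. *Fshb*, the beta subunit of follicle-stimulating hormone, was 40.7, 39.7, 19.6 and 24.2 in the mutants, 21.1, 11.7 and 7.34 in the controls and 34.8 in P392, and its difference of 1.24 (standard error 0.72, adjusted p = 0.425) without P392 and 0.87 with it was within the spread. *Cga*, their shared alpha subunit, differed by -0.31, *Tshb* (thyrotropin) by 0.03, *Prl* by 0.22, *Gh* (growth hormone) by -0.32 and *Pomc* by -0.02 without P392, with adjusted p from 0.569 to 0.993, and by -0.42, 0.04, 0.08, -0.18 and 0.60 with it. The sign of *Pomc* turned with P392.

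Several neuropeptide precursors changed, most of them upwards. Of 13 tested, 4 rose (*Prlh*, *Penk*, *Gal* and *Vip*) and 1 fell (*Nmu*) without P392, where 3.62% of all tested genes rose and 0.934% fell, with a list median of 0.97 (all genes 0.02), and 0.76 with all 4 controls. *Penk* (ENSMUSG00000045573, chromosome 4, 4133531 to 4138819), the enkephalin precursor, was 218, 137, 103 and 218 in the mutants, 38.0, 41.5 and 54.1 in the controls and 130.3 in P392, which lay inside the mutants' range. Its difference was 1.86 (standard error 0.25, adjusted p = 0.000584) without P392 and 1.47 (adjusted p = 0.205) with it. *Gal*, the galanin precursor and an oestrogen-induced lactotroph gene, was 2579, 1949, 2149 and 1819 in the mutants, 652, 247 and 295 in the controls and 2548 in P392 (log2 difference 2.54, standard error 0.62, adjusted p = 0.0295, and 1.83 with it). *Vip*, the precursor of vasoactive intestinal peptide, was 17.0, 7.11, 6.604 and 13.7 in the mutants, 2.65, 2.21 and 3.64 in the controls and 5.004 in P392, so that all 4 controls lay below all mutants, and it differed by 1.71 (adjusted p = 0.0266) without P392 and 1.53 (adjusted p = 0.211) with it. *Nmu*, neuromedin U, fell, with 0.676, 0.392, 0 and 1.07 in the mutants, 2.09, 3.47 and 2.46 in the controls and 1.08 in P392 (log2 difference -1.71, adjusted p = 0.0131, and -1.47 with it). *Gal* and *Vip* each passed in 2 of the 7 fits that also left out another HFD mouse, and *Nmu* in 6. *Pdyn*, the dynorphin precursor, differed by 0.20 (adjusted p = 0.854) without P392 and 0.41 with it.

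Listed oestrogen-induced genes were mostly higher, and no listed steroid or thyroid hormone receptor passed. Of 9 tested genes listed as oestrogen-induced, *Gal* and *Vip* passed and 8 had a positive difference, against 4.55% called and 52.4% positive over all tested genes, with a median of 0.76 without P392 and 0.55 with it. *Pgr*, the progesterone receptor, was 22.2, 17.4, 20.5 and 16.4 in the mutants, 12.9, 7.74 and 5.41 in the controls and 20.1 in P392, and did not pass (log2 difference 1.17, adjusted p = 0.0856, and 0.85 with it). None of the 10 steroid and thyroid hormone receptors passed, nor did any of 16 lineage transcription factors, among which *Neurod1* had the smallest p (log2 difference -0.67, adjusted p = 0.116, and -0.49 with it). Among the RefSeq promoters (250 bases before to 50 after the start), 2 of 13843 promoters of tested genes held a full element, GGTCA and TGACC with 3 bases between them, and 0 belonged to a called gene. A single arm, on either strand, was in 39.0% of 533 promoters of increased genes, 44.2% of 138 of decreased genes and 38.1% of all 13843. The stretches around it in *Gal* and in *Lhb*, an increased and a decreased gene, are given as for *Prss29*.
Gal, chr19:3414553-3414582, minus strand: gagagcggttccGGTCAcagcggcccttgg
Lhb, chr7:45420805-45420834, plus strand: ccctggcttcccTGACCttgtctgtgtctc

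Peptide receptors, granule genes and vesicle genes held a few increases, where 3.62% of all tested genes rose and 4.55% were called. *Oxtr*, the oxytocin receptor, was 20.7, 18.1, 18.8 and 7.56 in the mutants, 4.03, 1.06 and 0.721 in the controls and 28.1 in P392 (log2 difference 2.94, standard error 0.73, adjusted p = 0.034, and 1.99 with it). It and *Adcyap1r1*, the PACAP receptor (0.91, and 0.62 with it, adjusted p = 0.0357 without it), were the 2 called among 14 receptors for hypothalamic and local peptides, whose median was -0.04 without P392 and -0.03 with it. *Oxtr* passed in 2 and *Adcyap1r1* in 1 of the 7 fits that also left out another HFD mouse. *Vgf* was the 1 called of 13 prohormone processing and granule genes (median 0.14 without P392 and 0.08 with it). *Dio2*, the deiodinase that activates thyroid hormone, was 77.3, 65.4, 74.6 and 60.8 in the mutants, 23.98, 15.5 and 14.7 in the controls and 71.7 in P392, and rose by 1.94 (adjusted p = 0.000314) without P392 and differed by 1.44 with it, the 1 called of 3 thyrotroph markers. Of 16 genes of vesicle fusion, *Rab3a*, *Rph3a*, *Syt1* and *Cplx1* rose, by 0.72 (0.58 with it), 1.06 (0.85 with it), 0.66 (0.60 with it) and 1.19 (0.93 with it), while the list median was 0.06 without P392 and 0.10 with it. Of these, *Rab3a* passed in all 7 of the fits that also left out another HFD mouse, *Rph3a* in 3, *Syt1* in 1 and *Cplx1* in 0. In *Rab3a* and *Syt1* all 4 controls, P392 included, lay below all mutants.

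Genes of blood vessels were higher together. All 10 tested endothelial markers had a positive difference without P392, and 7 were called, *Flt1* and *Kdr* (VEGF receptors), *Tek* and *Tie1* (angiopoietin receptor tyrosine kinases), *Cdh5* and *Pecam1* (junction proteins) and *Egfl7* (a secreted endothelial factor), with a list median of 0.73 against 0.02 for all genes. Over all tested genes 3.62% rose and 52.4% had a positive difference, the shares against which the counts of the lists that follow are to be read. *Flt1* was 12.8, 11.7, 14.3 and 8.59 in the mutants, 5.30, 6.37 and 4.68 in the controls and 17.5 in P392 (log2 difference 1.04, standard error 0.17, adjusted p = 0.00258, and 0.64 with it). *Cdh5* was 12.1, 10.2, 11.2 and 10.3 in the mutants, 5.93, 6.36 and 6.19 in the controls and 13.5 in P392 (log2 difference 0.78, standard error 0.13, adjusted p = 0.00263, and 0.51 with it). With all 4 controls the endothelial median was 0.51 and 0 were called, and P392 lay above every mutant in 5 of these 7 genes. *Tek* passed in 1 and *Egfl7* in 0 of the 7 fits that left out another HFD mouse. Summed endothelial markers were 261, 241, 252 and 233 in the mutants, 148, 163 and 162 in the controls and 298 in P392.

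Mural cell and matrix genes followed the same order. *Rgs5*, of pericytes, was 108, 88.5, 108 and 65.4 in the mutants, 22.8, 31.3 and 30.1 in the controls and 121 in P392, and with *Notch3* it was 1 of 2 called among 4 mural markers (log2 differences 1.69 and 0.86, and 1.16 and 0.60 with it). Of 22 extracellular matrix genes, all had a positive difference and 9 rose, *Col1a1*, *Col1a2*, *Col4a2*, *Col5a1*, *Col6a1*, *Fn1*, *Lama4*, *Lamb1* and *Sparc*, with a median of 0.74 without P392 and 0.55 with it. *Col1a2*, a chain of type I collagen, was 329, 353, 480.0 and 222 in the mutants, 136, 130.3 and 89.0 in the controls and 623 in P392 (log2 difference 1.52, standard error 0.23, adjusted p = 0.0013, and 0.91 with it). *Sparc*, a collagen-binding protein, was 148, 140.3, 213 and 112 in the mutants, 47.3, 66.8 and 53.8 in the controls and 344 in P392 (log2 difference 1.42, standard error 0.18, adjusted p = 0.000425, and 0.76 with it). P392 was far above the mutants in *Sparc* and again above them all in *Col1a2*. *Col1a1* passed in 3, *Col5a1*, *Col6a1* and *Fn1* in 5 and *Col4a2* in 1 of the 7 fits that left out another HFD mouse. *Fn1* (fibronectin) differed from these, at 4.24, 5.49, 3.84 and 4.55 in the mutants, 1.52, 1.17 and 1.74 in the controls and 2.50 in P392, with no overlap between 4 and 4. 

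Markers of connective tissue, macrophages and blood are given beside these groups. Of 5 fibroblast markers *Col1a1* and *Col1a2*, both also matrix genes, were called and 3 had a positive difference, with a median of 0.24 without P392 and 0.25 with it. The 5, most of whose sum is *Col1a2*, summed to 375, 403, 559.7 and 257 in the mutants, 176, 178 and 122 in the controls and 688 in P392. All 10 macrophage markers had a positive difference (median 0.80 without P392 and 0.56 with it) and *Mrc1* (1.01, and 0.77 with it) and *C1qa* (1.24, and 0.85 with it) were called. Their sum was 125.1, 209, 127 and 94.7 in the mutants, 52.1, 66.7 and 98.6 in the controls and 162 in P392, so the groups overlapped. All 5 red blood cell genes had a positive difference and 0 were called, the smallest adjusted p being that of *Alas2* (0.178), with a median of 0.82 without P392 and 0.71 with it. They summed to 2406, 1291, 2077 and 1824 in the mutants, 774, 1782 and 956 in the controls and 1218 in P392, and the groups overlapped. The part of vessel, blood or connective tissue content in the other gene groups was not tested.

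**Figure D4:**
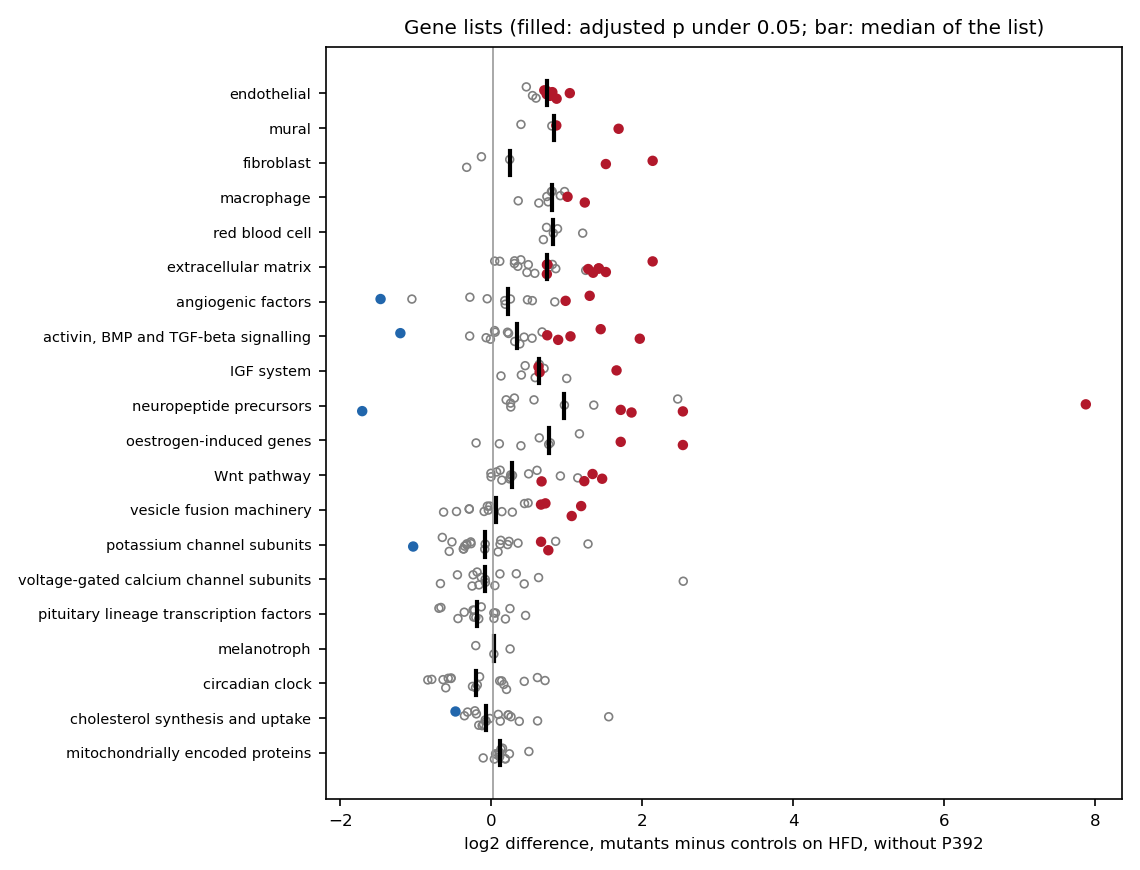
Log2 difference between mutants and the controls P385, P390 and P391 on HFD (x axis) of each tested gene in 20 gene lists (y axis), without P392. Filled points are genes with an adjusted p under 0.05 (red higher, blue lower in mutants), open points the others, black bars the list medians and the grey line the median of all tested genes. Endothelial and extracellular matrix genes lie to the right of 0 throughout, and melanotroph, clock and mitochondrial genes centre near 0.

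Secreted signals to vessels and matrix changed in both directions. *Vegfa*, the endothelial growth factor, was 127, 129, 129 and 85.5 in the mutants, 56.2, 50.4 and 35.9 in the controls and 160.4 in P392 (log2 difference 1.303, standard error 0.24, adjusted p = 0.00583, and 0.86 with it), and *Dll4*, a Notch ligand of sprouting endothelium, rose by 0.98 (0.71 with it). *Vegfd*, a ligand of lymphatic VEGF receptors, fell by 1.47 on the log2 scale (-1.09 with it). These were the 3 called of 12 angiogenic factors, whose median was 0.22 without P392 and 0.23 with it. In the activin, BMP and TGF-beta list, 5 of 18 rose and 1 fell, with a median of 0.34 without P392 and 0.27 with it. *Nog*, the secreted BMP antagonist noggin, was 70.3, 73.1, 39.6 and 36.8 in the mutants, 15.2, 16.1 and 8.98 in the controls and 50.9 in P392 (log2 difference 1.97, standard error 0.27, adjusted p = 0.000605, and 1.48 with it). *Chrd*, encoding the BMP antagonist chordin, went the other way, with 8.07, 8.08, 5.73 and 8.75 in the mutants, 13.1, 19.4 and 23.2 in the controls and 5.65 in P392 (log2 difference -1.21, adjusted p = 0.0135, and -0.81 with it). *Chrd* overlaps *Thpo* on the opposite strand. The ligands *Tgfb1*, *Tgfb2* and *Tgfb3* rose by 0.89 (0.68 with it), 1.45 (0.98 with it) and 1.05 (0.74 with it), and *Inhbb*, the activin B subunit, by 0.74 (0.48 with it). Of the 7 fits that also left out another HFD mouse, *Tgfb1* and *Chrd* passed in 5 and *Tgfb3* in 1. *Fst*, encoding the activin antagonist follistatin, was under the filter on low values, at 0.475, 0.189, 1.23 and 0.244 in the mutants, 0.0723, 0.133 and 0.0244 in the controls and 0.987 in P392. Its mean log2 difference was 0.40 with all 4 controls (exact permutation test, two-sided p = 0.4) and 0.75 without P392, where the groups did not overlap (two-sided exact permutation test p = 0.0571, the smallest that 4 against 3 allows).

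All 10 genes of the IGF system had a positive difference, and the binding proteins *Igfbp3*, *Igfbp4* and *Igfbp5* rose, with a list median of 0.63 without P392 and 0.39 with it. *Igfbp4* differed by 0.62 (0.53 with it) and passed in 1 of the 7 fits that also left out another HFD mouse. *Igfbp3* was 101, 84.0, 77.7 and 92.4 in the mutants, 30.8, 31.3 and 21.98 in the controls and 105 in P392 (log2 difference 1.66, standard error 0.26, adjusted p = 0.00175, and 1.18 with it). *Igfbp5* was 262, 273, 256 and 274 in the mutants, 153, 179.9 and 181 in the controls and 298 in P392 (log2 difference 0.64, standard error 0.09, adjusted p = 0.000997, and 0.44 with it). In the CCN family of matricellular proteins, *Ccn1* rose by 1.69 (adjusted p = 0.00156, and 1.22 with it), and *Ccn3* was 2.97, 2.08, 1.37 and 1.80 in the mutants, 0.862, 0.864 and 0.922 in the controls and 1.59 in P392. The *Ccn3* difference of 0.85 (standard error 0.34, adjusted p = 0.2) without P392 did not pass, nor did that of 0.70 with it (adjusted p = 0.478). The 4 of 17 Wnt genes that rose were the transcription factor *Tcf7l2* (1.47, and 1.11 with it, adjusted p = 0.000135 without it), the ligand *Wnt10a* (1.34, and 1.11 with it), the receptor *Fzd4* (0.67, and 0.49 with it) and *Dkk3* (1.23, and 0.87 with it), of the Dickkopf family, and the list median was 0.28 without P392 and 0.36 with it. *Wnt10a* passed in 1 and *Fzd4* in 4 of the 7 fits that also left out another HFD mouse. *Tcf7l2* was 11.8, 10.9, 14.1 and 8.04 in the mutants, 3.26, 3.80 and 3.96 in the controls and 10.7 in P392.

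Channel and transmitter receptor genes were called in both directions, against 4.55% called over all tested genes. The 2 called nicotinic subunits were *Chrna6* and *Chrnb3*, of 6 tested. Among sodium channel subunits *Scn2b* and *Scn4a* rose by 1.26 (0.87 with it) and 1.10 (0.76 with it), and among potassium channel subunits *Kcnk1* and *Kcnn2* rose by 0.66 (0.41 with it) and 0.75 (0.56 with it) and *Kcnmb2* fell, with a difference of -1.04 (-0.73 with it), of 8 and 23 tested. The glutamate receptor subunits *Gria4* and *Grik2* fell, 2 of 10 tested, with differences of -1.32 (-0.69 with it) and -0.86 (-0.64 with it). Of the 7 fits that also left out another HFD mouse, *Scn2b* passed in 6, *Chrna6* in 3, *Kcnn2* in 2 and *Scn4a* and *Kcnmb2* in 1. None of 15 calcium channel subunits passed, although *Cacna1g*, a T-type channel, was 211, 178, 147 and 90.8 in the mutants and 95.1, 16.9 and 9.81 in the controls, with P392 at 138 and a difference of 2.54 (adjusted p = 0.0604, and 1.94 with it). The control P385 was by far the highest of its 3 in this gene and overlapped the mutants.

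Among lipid genes the called increases were in uptake and storage genes. *Cd36*, a fatty acid transporter also found on endothelium, was 16.3, 9.37, 9.04 and 33.4 in the mutants, 1.99, 1.23 and 1.53 in the controls and 10.7 in P392 (log2 difference 2.89, standard error 0.46, adjusted p = 0.00213, and 2.28 with it). *Lpl*, the lipoprotein lipase, and *Fabp4*, a fatty acid binding protein of adipocytes and endothelium, rose by 0.88 (0.63 with it) and 1.24 (0.79 with it), and these 3 were the called genes of 17, whose median was 0.06 without P392 and -0.01 with it. *Fdft1*, the squalene synthase, was the 1 called of 19 genes of cholesterol synthesis and uptake, at 21.5, 23.2, 20.7 and 22.1 in the mutants, 29.2, 34.5 and 29.2 in the controls and 20.1 in P392 (log2 difference -0.49, adjusted p = 0.0192, and -0.34 with it). *Thrsp*, a regulator of lipogenesis, fell by 0.70 on the log2 scale (-0.62 with it) and was the 1 called of 13 genes of fatty acid synthesis. Of the 7 fits that also left out another HFD mouse, *Fdft1* passed in 4 and *Fabp4* and *Thrsp* in 1.

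Other lists held no called gene without P392. They were the markers of lactotrophs, somatotrophs, corticotrophs, melanotrophs and stem or folliculostellate cells, red blood cell and hypothalamic neuron genes, steroid receptors and lineage factors, leptin, insulin and JAK-STAT signalling, cell cycle, circadian clock, immediate early, glucocorticoid response, unfolded protein response, interferon, antigen presentation, mitochondrially encoded and calcium channel genes. The member with the smallest p was *Angpt1* among lactotroph markers (-1.05, adjusted p = 0.156), *Pappa2* among somatotroph markers (1.12, 0.136), *Crhr1* among corticotroph (-0.45, 0.161) and *Pcsk2* among melanotroph markers (0.25, 0.871), *Aldh1a2* among stem cell markers (0.43, 0.211) and *Agrp* among hypothalamic genes (-0.999, 0.251). It was *Birc5* for the cell cycle (1.05, 0.0835), *Bhlhe40* for the clock (0.71, 0.175), *Jund* for immediate early genes (0.39, 0.0694), *Cdkn1a* for the glucocorticoid list (0.69, 0.0748), *Socs2* for JAK-STAT (0.37, 0.15), *Creld2* for the unfolded protein response (0.39, 0.161), *Usp18* for interferon (-0.50, 0.0617), *H2-Eb1* for antigen presentation (0.98, 0.3) and *mt-Co2* for mitochondrial genes (0.50, 0.663), each with its log2 difference and adjusted p without P392. With it, the differences of these 15 genes were, in the same order, -0.90, 1.08, -0.39, 0.63, 0.32, -0.80, 0.81, 0.57, 0.26, 0.56, 0.17, 0.20, -0.32, 0.87 and 0.23. Without P392, cell cycle genes had a positive difference in 13 of 16 and immediate early genes in 14 of 16. The count was 20 of 21 for the unfolded protein response, 12 of 13 for mitochondrially encoded genes and 8 of 9 for antigen presentation. It was 7 of 18 for the clock and 6 of 16 for lineage factors, where most differences were negative. *Col25a1*, the called gene of the 6 posterior lobe markers, was 17.8, 14.5, 17.4 and 18.2 in the mutants, 9.40, 7.77 and 7.49 in the controls and 15.3 in P392 (log2 difference 1.01, and 0.79 with it). No lymphocyte marker passed the filter on low values.

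The mice on SD gave a comparison of the same genotypes in other animals. Among them, the mutant P357 had low melanotroph, corticotroph and posterior lobe markers, as P392 did. Its summed melanotroph markers were 12.7 against 99.4 to 159 in the other SD mice, and its summed corticotroph markers 1672 against 11531 to 17423. Its posterior lobe markers had a mean on the log2 scale of 0.49 against 1.37 to 2.05. P357 was kept, and its part in the SD calls and in the shared signs was not tested. Of the 653 genes called on HFD without P392, 639 (97.9%) had the same sign between mutants and controls on SD, against 65.9% of all tested genes. On SD 264 genes (1.84%) were called, and 132 genes were called in both comparisons, all in the same direction, which is 50% of the SD calls and 20.2% of the HFD calls. Both comparisons use the same estimate of each gene's spread, which favours shared calls, but they share no mouse. With all 8 HFD mice, 94.3% of the 264 genes had the same sign on HFD. *Esr1* was lower in mutants on SD, as given above, with P357 the lowest. The other SD mutants lay at 20.5 to 22.2 and the SD controls at 29.0 to 46.6. *Prlh*, *Prss29* and *Gal* differed by 8.07, 6.92 and 3.16 on SD, and *Penk* by 2.50. *Lhb* (-0.18, adjusted p = 0.775), *Nmu* (-0.38, adjusted p = 0.576), *Rhobtb1* (0.50, adjusted p = 0.353) and *Lpl* (0.09, adjusted p = 0.841) did not pass on SD. A difference between diets was tested by the interaction of genotype and diet, which was past the threshold in 0 of 14345 genes (0%) with all 16 mice, with 602 at an unadjusted p under 0.05 and a smallest adjusted p of 0.152, and in 0 genes (0%) without P392 (also 602 at an unadjusted p under 0.05, smallest adjusted p = 0.155). For *Lhb* the interaction without P392 was -1.30 (standard error 0.37, adjusted p = 0.926).

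**Figure D5:**
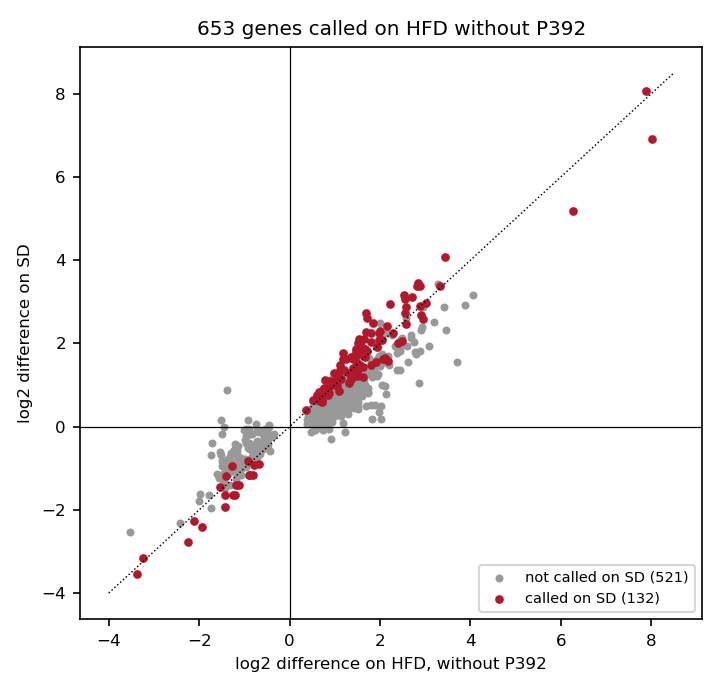
Log2 difference between mutants and controls on SD (y axis) against that on HFD without P392 (x axis) for the 653 genes called on HFD, with the 132 also called on SD in red and the others in grey. The dotted line marks equal differences, and 639 of the 653 points have the same sign on both axes.

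The animal numbers fall in 2 ranges, with the mutants P339 and P341 in the lower range and the other 6 HFD mice in the upper. Within the upper range, with 2 mutants against 3 controls, 149 of 14345 genes passed without P392, 136 of them higher in mutants. Of the 149, 148 were among the 653, which is 22.7% of the 653. This fit used mice of the main fit and no others, so shared calls were favoured in advance. With the range as a covariate 452 passed. *Prss29*, *Prss28*, *Prlh* and *Vgf* had no overlap between the mutants P387 and P388 and the controls P385, P390 and P391. These genes were named partly for lack of overlap between all HFD mutants and the same controls. Their lack of overlap within the upper range was therefore fixed in advance and is no test of the range.

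The called genes were spread over the genome. On the 19 autosomes and the X chromosome, between 2.95% (chromosome 4) and 6.39% (chromosome 8) of tested genes were called without P392, against 4.55% in all. In 53 pairs of neighbouring tested genes both members were called, 49 pairs in the same direction. Such pairs, named after their values were seen, included *Prss28* with *Prss29*, *Chrnb3* with *Chrna6*, *Mlph* (melanophilin, 1.49, and 1.07 with it) with *Prlh*, *Scnn1g* with *Scnn1b* (epithelial sodium channel subunits, 2.57 (1.90 with it) and 1.41 (1.03 with it)), *Nefm* with *Nefl* (neurofilament subunits, 1.03 (0.61 with it) and 1.38 (0.98 with it)) and *Abcg5* with *Abcg8* (sterol transporters, 2.77 (1.85 with it) and 2.40 (1.76 with it)). *Parp16* and *Cilp*, both lower, are also neighbours.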

How the data were processed

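Pituitary RNA of 16 mice was sequenced, 1 library per mouse. The deposited values are a normalised expression signal per gene, which the authors made with kallisto in gene mode on mm10, with sleuth for their own tests. Tool versions, strand use and scaling are not given in the sources used here. The values are not counts, so no count test was run.

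Ensembl IDs were matched to symbols and positions for 17356 of 17362 genes. Genes with a mean of at least 1 were tested with the package limma 3.58.1 under R 4.3.3, on the log2(value + 0.5) scale (trended empirical Bayes, 1 mean per group, all 16 mice, Benjamini-Hochberg), once with P392 and once without it. The script was checked on simulated data. Tables and figures were made with Python 3.11.15, pandas 2.3.3 and matplotlib 3.10.9.

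Named genes were *Esr1*, *Nkx2-1*, *Pdyn*, *Penk*, *Ccn3*, *Fst* and the hormone genes, the 8 genes per direction with the smallest unadjusted p and no overlap with all 8 mice, the 15 largest non-overlapping called changes per direction without P392 and the called members (or the one with the smallest p) of 46 gene lists, passing over predicted genes. The members, the lists and the omission of P392 were chosen with earlier results of these data known. Alternatives covered the filter, the value added, scaling, weights, covariates and each mouse left out. The values of 1 gene among the list members are not reported here.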

Additional observations from a re-analysis of the deposited data

Results flagged for a closer look

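A sample far from the other 3 mice of its HFD group by Dixon's ratio test at 95% was found in 53 of 298 groups of 4 searched, and 45 of the 53 were the control P392. Chance flags about 1 in 20 groups, but most groups searched are genes named because the other 3 controls agreed or lay apart from the mutants, which favours such flags in P392, so the count describes P392 and is not a comparison with chance. The values are given against the range of the other 3 mice.

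Among the controls, P392 was apart in *Ccn3* (1.59 against 0.862 to 0.922), *Spon1* (16.2 against 3.25 to 4.12), *Prss29* (370.0 against 0.140 to 0.731), *Prlh* (556 against 0 to 7.71), *Prss28* (59.1 against 0 to 0.0621), *Emilin2* (19.5 against 0.187 to 0.469), *Ak5* (15.6 against 0.387 to 1.503), *Spink4* (11.1 against 0.435 to 0.867), *Hmcn2* (36.9 against 0.644 to 2.41), *Slc5a5* (19.0 against 0.473 to 0.974) and *Asic2* (93.9 against 4.43 to 15.4). It was also apart in *Abcc3* (17.4 against 0.398 to 1.41), *Vgf* (165 against 9.48 to 13.7), *Ly6a* (439 against 23.0 to 39.9), *Clec2l* (40.3 against 3.26 to 6.25), *Dio2* (71.7 against 14.7 to 23.98), *Aldh1a2* (35.6 against 25.1 to 26.6), *Egfl7* (42.8 against 24.04 to 27.2), *Flt1* (17.5 against 4.68 to 6.37), *Cdh5* (13.5 against 5.93 to 6.36), *Rgs5* (121 against 22.8 to 31.3) and *Col1a1* (34.2 against 2.45 to 2.76). The same held for *Col1a2* (623 against 89.0 to 136), *Adcyap1r1* (8.04 against 3.13 to 3.64), *Oxtr* (28.1 against 0.721 to 4.03), *Inhbb* (13.9 against 5.98 to 7.06), *Tgfb2* (11.5 against 2.24 to 3.43), *Nog* (50.9 against 8.98 to 16.1), *Igfbp3* (105 against 21.98 to 31.3), *Vegfa* (160.4 against 35.9 to 56.2), *Col6a1* (5.18 against 2.52 to 2.77), *Sparc* (344 against 47.3 to 66.8) and *Lama4* (5.59 against 1.62 to 2.11). The remaining genes were *Col5a1* (7.59 against 1.03 to 1.21), *Cd36* (10.7 against 1.23 to 1.99), *Lpl* (35.3 against 16.3 to 18.7), *Fabp4* (26.03 against 6.93 to 7.29), *Scn4a* (2.58 against 0.652 to 0.704), *Scn2b* (24.3 against 7.52 to 8.73), *Kcnk1* (37.3 against 16.9 to 19.9), *Tcf7l2* (10.7 against 3.26 to 3.96) and *Dkk3* (31.8 against 10.8 to 12.5). All of these values were above the range of the other controls.

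The summed endothelial markers (298 against 148 to 163), summed mural markers (149 against 35.4 to 48.0) and summed fibroblast markers (688 against 122 to 178) of P392 were above the other controls. Among the mutants, the mouse apart was the one named in *Parp16* in P339 (3.48 against 5.996 to 6.23), *Gemin8* in P388 (9.55 against 8.81 to 8.84), *Asic2* in P388 (52.7 against 78.1 to 79.0), *Slc6a11* in P388 (1.94 against 0.866 to 0.947), *Adcyap1r1* in P388 (5.59 against 7.03 to 7.29), *Vegfa* in P388 (85.5 against 127 to 129) and *H2-Eb1* in P341 (213 against 67.1 to 91.1). The summed lymphocyte markers of P341 were 7.77 against 2.37 to 3.02 in the other mutants.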

How the results depend on the processing

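With all 4 controls, the count of 0 called genes became 1 without a filter, with a mean of at least 0.1 and without the variance trend, 89 (69 higher) with the mean melanotroph and posterior lobe marker level as a covariate, and 1068 with array weights, of which 610 were among the 653. Leaving out 1 mouse gave 0 to 653, the highest without P392. Without P392, the 653 became 399 with a mean of at least 5, 2032 with array weights, 149 within the upper range of animal numbers, 262 at an adjusted p under 0.01 and 297 to 1064 on leaving out another mouse. Quantile normalisation gave 679, with 454 higher and 225 lower in place of 519 and 134. The cause of these changes was not tested.

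Counting each named gene under each alternative, 336 estimates lost the threshold in the analysis without P392 and 28 in both analyses changed sign, none of them past the threshold. With all 4 controls, *Prl* was -0.077 with the number range as a covariate, -0.092 within the upper range and -0.031 to 0.22 on leaving out a mouse. *Pomc* was -0.15 with the lobe covariate and -0.022 to 1.18 on leaving out a mouse. *Nkx2-1* was -0.026 to 0.69 on leaving out a mouse. *Tshb* was -0.017 after quantile normalisation, -0.072 with the range covariate and -0.13 to 0.15 on leaving out a mouse. *Socs2* was -0.0094 to 0.37, and *mt-Co2* -0.0028 to 0.50 on leaving out a mouse and -0.015 within the upper range. Without P392, *Nkx2-1* was 0.025 with array weights, 0.028 with the range covariate and -0.16 to 0.11 on leaving out a mouse. *Pomc* was 0.13, 0.42 and -0.42 to 0.54 in the same order. *Tshb* was -0.0069 after median scaling, -0.091 after quantile normalisation, -0.088 with the range covariate and -0.15 to 0.14 on leaving out a mouse, and *Cga* was 0.0092 within the upper range.

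No paired analysis was possible because the labels give the mice no shared replicate numbers. Values near the 3-read level, and the 3 controls left without P392, limit precision. The p-values set each difference against a spread estimated over all mice of the fit, and take the mice as independent. The labels do not say how the mice are related, so whether they were independent cannot be told.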
